A study of Mus musculus with 4 samples.

Results

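The neutrophil granule protein genes were taken by symbol from the features of the deposited matrices, and all 10 (Elane, Mpo, Prtn3, Ctsg, Ltf, Camp, Ngp, Lcn2, S100a8 and S100a9) were found once each among 28006 features. They were followed through droplet-based single-cell RNA-seq of Cxcl12CE-tdTomato+ cells sorted from mouse femurs. The study reports that a substantial part of the sorted cells lay in clusters without detectable tdTomato, including myeloid cells. Neutrophil-lineage cells are therefore not taken here as cells of the Cxcl12-creER lineage, and their numbers are those of the sort. The mice were Cxcl12-iCreER; R26R(tdTomato/+), in which a tamoxifen-inducible Cre recombinase, carried by 1 bacterial artificial chromosome transgene line under Cxcl12 sequences, switches on tdTomato in CXCL12-expressing marrow stromal cells. All mice had received tamoxifen 7 days before surgery. The marrow of 1 femur was removed mechanically, and 7 days later cells of the ablated femur (ABL) and of the untreated contralateral femur (CONT) were sorted and sequenced as separate libraries. By this description the controls were bones of operated mice. The age, sex and strain background of the mice were not given in the labels used here. There were 4 libraries, 1 per condition in each of 2 biological replicates, and the chemistry was Chromium v2 in replicate 1 (pooled mice) and v3 in replicate 2, so that replicate and chemistry cannot be told apart. Unless stated otherwise, values of the 4 libraries are given in the order CONT replicate 1, ABL replicate 1, CONT replicate 2 and ABL replicate 2.

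Neutrophils are made in the marrow from committed precursors and store antimicrobial proteins in granules that are filled in sequence as the cells mature. The azurophil or primary granules form first and hold the serine proteases neutrophil elastase (Elane), proteinase 3 (Prtn3) and cathepsin G (Ctsg) with myeloperoxidase (Mpo), the enzyme that makes hypochlorous acid. The specific or secondary granules follow with lactoferrin (Ltf), an iron-binding protein, the cathelicidin precursor (Camp), the neutrophilic granule protein (Ngp), a cystatin-fold relative of cathelicidins, and lipocalin 2 (Lcn2), which binds bacterial siderophores. S100a8 and S100a9 encode the 2 subunits of calprotectin, a calcium- and metal-binding complex that fills the cytosol of neutrophils. Their messages are among the most abundant in marrow, so they are also common in the free RNA of a marrow suspension, which is captured in droplets together with other cells.

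In the gene annotation (GENCODE M21 on GRCm38), several members were neighbours. Prtn3 (chr10:79874476-79883174, plus strand) lay 3072 bases before Elane (chr10:79886247-79888215, plus strand), with the adipsin gene Cfd next after Elane. Camp (chr9:109847379-109849617, minus strand), Ngp (chr9:110419747-110423012, plus strand) and Ltf (chr9:111019271-111042767, plus strand) lay within 1195 kb of each other. S100a8 (chr3:90668978-90670035, plus strand) and S100a9 (chr3:90692632-90695721, minus strand) were 22.6 kb apart. Mpo (chr11:87793581-87804413, plus strand), Ctsg (chr14:56099881-56102574, minus strand) and Lcn2 (chr2:32384633-32388252, minus strand) were not next to another member. All 10 had a RefSeq promoter entry on GRCm38.p6, read here over the 250 bases before the RefSeq start. This start can differ from the GENCODE start. The Prtn3 window below lies inside the GENCODE span of Prtn3, and the Elane and Ngp windows run past their GENCODE starts. The promoters of 2 primary and 2 secondary granule genes are shown because these groups separated along maturation and differed in the strings marked here, though not in all related strings. Capitals mark AGGAAGT, a string bound by PU.1 and other ETS factors, and TTGCNNAA, a string of the kind bound by C/EBP factors, on either strand, and the windows are chr10:79886062-79886311, chr10:79879417-79879666, chr9:111019042-111019291 and chr9:110419558-110419807, all on the plus strand and written 5′ to 3′.
Elane: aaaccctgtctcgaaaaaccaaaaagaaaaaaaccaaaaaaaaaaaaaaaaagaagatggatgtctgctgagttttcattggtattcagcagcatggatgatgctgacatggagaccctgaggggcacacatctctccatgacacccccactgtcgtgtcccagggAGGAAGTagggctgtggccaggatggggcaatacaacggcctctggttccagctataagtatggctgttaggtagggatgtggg
Prtn3: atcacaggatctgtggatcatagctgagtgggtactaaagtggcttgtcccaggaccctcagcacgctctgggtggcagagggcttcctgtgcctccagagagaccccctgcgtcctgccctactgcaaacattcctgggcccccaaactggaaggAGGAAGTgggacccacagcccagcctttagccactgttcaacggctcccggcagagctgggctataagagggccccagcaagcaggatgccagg
Ltf: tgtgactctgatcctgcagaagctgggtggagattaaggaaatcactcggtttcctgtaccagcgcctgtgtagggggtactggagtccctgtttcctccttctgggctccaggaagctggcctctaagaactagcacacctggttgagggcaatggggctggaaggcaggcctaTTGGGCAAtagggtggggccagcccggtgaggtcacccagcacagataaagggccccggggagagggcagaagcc
Ngp: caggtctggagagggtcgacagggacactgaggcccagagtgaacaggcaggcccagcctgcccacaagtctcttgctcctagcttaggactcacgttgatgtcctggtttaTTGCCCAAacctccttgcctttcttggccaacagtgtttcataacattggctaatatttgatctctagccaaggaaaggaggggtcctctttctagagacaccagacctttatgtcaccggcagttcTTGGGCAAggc

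AGGAAGT was present before all 4 primary granule genes and before S100a8, against 7.69% of 32851 RefSeq promoters of the same length. In Elane and Prtn3 it began 84 and 94 bases before the RefSeq start. TTGCNNAA was present before Ltf, Ngp, Lcn2 and S100a9 and before none of the primary granule genes, against 9.56% of all promoters. These were 2 of 18 strings searched on both strands, and some of them overlap. The longer PU.1-type string GAGGAAGT (2.44% of promoters) was found in 4 members and its core GAGGAA (23.25%) in 7. Those with GAGGAA included the secondary granule genes Ltf and Lcn2. Among further C/EBP-type strings, TTGCGCAA (0.164%) was found in 0 members, ATTGCNNAAT (0.539%) in 1, TTNCNNAA (36.85%) in 5 and TTGCNNCA (9.59%) in 5. Those with TTGCNNCA were the primary granule genes Elane and Mpo with Camp, S100a8 and S100a9. C/EBP-type strings were thus not confined to the secondary granule genes. The MYB-type strings AACNGN (74.1%), CAACTG (11.1%) and AACGG (14.5%) were found in 10, 1 and 2 members. The remaining strings were AAATCNC of GFI1 (10.3%, 1 member), TGANTCA of AP-1 (6.75%, 0 members), TGTGGT and TGTGGTTT of RUNX factors (14.05%, 2 members, and 1.495%, 0 members), GGAAAGG of ETS factors (8.48%, 1 member), TATAAA (12.4%, 2 members) and CCAAT (33.85%, 3 members). A match is a description of these letters and not of binding.

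The libraries held 22889380 to 44784072 UMIs, and 3433, 1459, 2404 and 2537 barcodes were called as cells. Only 0 to 5 barcodes were shared between any pair of libraries. Neutrophil-lineage cells made up 1060, 314, 140 and 177 of the called cells (30.9%, 21.5%, 5.82% and 6.98%), and mesenchymal cells 1316, 692, 2053 and 1809. The 18 neutrophil marker genes, none of which is a member, were all detected in the neutrophil-lineage cells of every library. Replicate 2 stood apart from replicate 1 in 2 ways that touch these genes: droplets with at most 300 UMIs, called near-empty here, held 9.64% and 7.52% of all UMIs there against 23.6% and 32.2% in replicate 1, and Xist, the RNA that coats the inactive X chromosome, was found in 71.9% of mesenchymal cells of CONT but 0.0553% of those of ABL. In replicate 1, Xist was found in 49.9% and 81.4% of mesenchymal cells, so both conditions held Xist-positive cells there. The Xist values go against an origin of the 2 libraries of replicate 2 from the same mice, and in that replicate a difference between mice and the effect of ablation cannot be told apart.

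Along maturation, the primary granule genes came before the secondary granule genes, and the calprotectin genes stayed high longest. Neutrophil-lineage cells were clustered without the members into 5 stages, numbered by the level of mature over early marker genes. Stage 1, led by Ms4a3, Dmkn, Prss57 and Gstm1, had 141, 33, 12 and 35 cells and scored highest for the early granulocyte precursor markers. Stages 2 (170, 38, 20 and 41 cells, led by Fcnb, Chil3, Cebpe and Orm1), 3 (225, 80, 20 and 35 cells) and 4 (269, 67, 26 and 32 cells, led by Mmp8, Ceacam10, Ifitm6 and Ly6g) matched immature neutrophils, and stage 5 (255, 96, 62 and 34 cells, led by Gm5483, BC100530, Stfa2l1 and Il1b) mature neutrophils. Stage 1 is called by its number, since its markers were mixed. Its 8 monocyte or macrophage markers summed to 4512, 4239, 5179 and 3486 CPM and its 18 neutrophil markers to 5093, 5227, 3126 and 3007 CPM, so that the monocyte markers were the higher sum in replicate 2. F13a1, the coagulation factor XIII A chain made by monocytes, was at 340, 392, 1297 and 620 CPM (UMI counts scaled to the total UMIs of the class) in stage 1 against 0 to 19.96 CPM in stage 2. When the members were kept among the clustering genes, 94, 23, 9 and 23 of the stage 1 cells fell into clusters named monocyte or macrophage and 46, 10, 3 and 10 into early granulocyte precursors.

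The 4 primary granule genes were highest in stage 1 in all 4 libraries. Elane was at 8894, 7704, 4705 and 6154 CPM in stage 1. It was at 1558, 1333, 110 and 1247 CPM in stage 2 and at 66.8 CPM or less in stages 3 to 5 of any library. Its peak over stage 2 was therefore 5.71-fold, 5.78-fold, 42.6-fold and 4.93-fold, with CONT replicate 2 apart from the other 3. Mpo was at 4187, 4118, 1920 and 2441 CPM in stage 1 and at 262, 332, 7.07 and 133 CPM in stage 2. Prtn3 was at 4616, 4428, 4682 and 6282 CPM in stage 1 and at 671, 563, 174 and 1363 CPM in stage 2. Ctsg was at 2636, 2829, 1355 and 2250 CPM in stage 1 and at 77.8, 155, 7.07 and 85.2 CPM in stage 2. Elane was uneven among stage 1 cells: the median stage 1 cell held 28, 12, 24.5 and 12 UMIs of Elane, and single cells held up to 699, 823, 637 and 562. Thinned to 1000 UMIs per cell, 59.6%, 48.5%, 50% and 51.4% of stage 1 cells had an Elane UMI (85.1%, 72.7%, 83.3% and 77.1% before thinning). The share among B-lineage cells, which should lack the gene, was 6.94%, 4.35%, 0% of 63 cells and 0% of 22 cells (exact binomial upper bounds 5.69% and 15.4% for the last pair), with median depths of 4822, 4510, 5944 and 7605 UMIs against 14839, 19124, 34001 and 18733 in stage 1.

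The secondary granule genes were low in stage 1, high in stages 2 to 4 and lower again in stage 5. Ltf was at 84.0, 367, 5.05 and 203 CPM in stage 1, peaked in stage 3 at 11128, 10991, 13604 and 10613 CPM, and was at 1309, 1416, 247 and 2408 CPM in stage 5. Ngp peaked in the same stage, at 59330, 61845, 43811 and 44602 CPM, from 1687, 2259, 35.3 and 874 CPM in stage 1. Lcn2 peaked there as well, at 13430, 14990, 19311 and 16278 CPM, and kept more of its level than the other 3 in stage 5, at 5458, 6864, 4488 and 9561 CPM. Camp came first of the 4, with its highest level in stage 2 in 3 of the 4 libraries and in stage 3 in ABL replicate 1. It was at 63713, 54987, 54191 and 65456 CPM in stage 2 and at 5336, 5891, 785 and 8157 CPM in stage 5. CONT replicate 2 was the lowest library in stage 5 for all 4 genes.

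The calprotectin genes stayed high to the end. S100a8 was at 17883, 17338, 7192 and 13132 CPM in stage 1 and at 227105, 227460, 190723 and 205014 CPM in stage 3. In stage 5 it was still at 219933, 215422, 139762 and 185576 CPM. S100a9 was at 9123, 8663, 6062 and 11211 CPM in stage 1 and at 141974, 145555, 172078 and 231709 CPM in stage 5. The S100a9 levels of replicate 2 were above those of replicate 1 in each of stages 2 to 5, while those of S100a8 were below, and the chemistries differ in the same way. Together the 10 genes made up 36.2%, 36.5%, 36.0% and 36.4% of all UMIs of neutrophil-lineage cells, from 2.64% to 5.29% in stage 1 to 51.5% to 55.3% in stage 3. Within stages the libraries differed more, with 48.3%, 49.5%, 43.9% and 51.8% in stage 4 and 38.5%, 38.5%, 31.9% and 44.6% in stage 5.

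**Figure D1:**
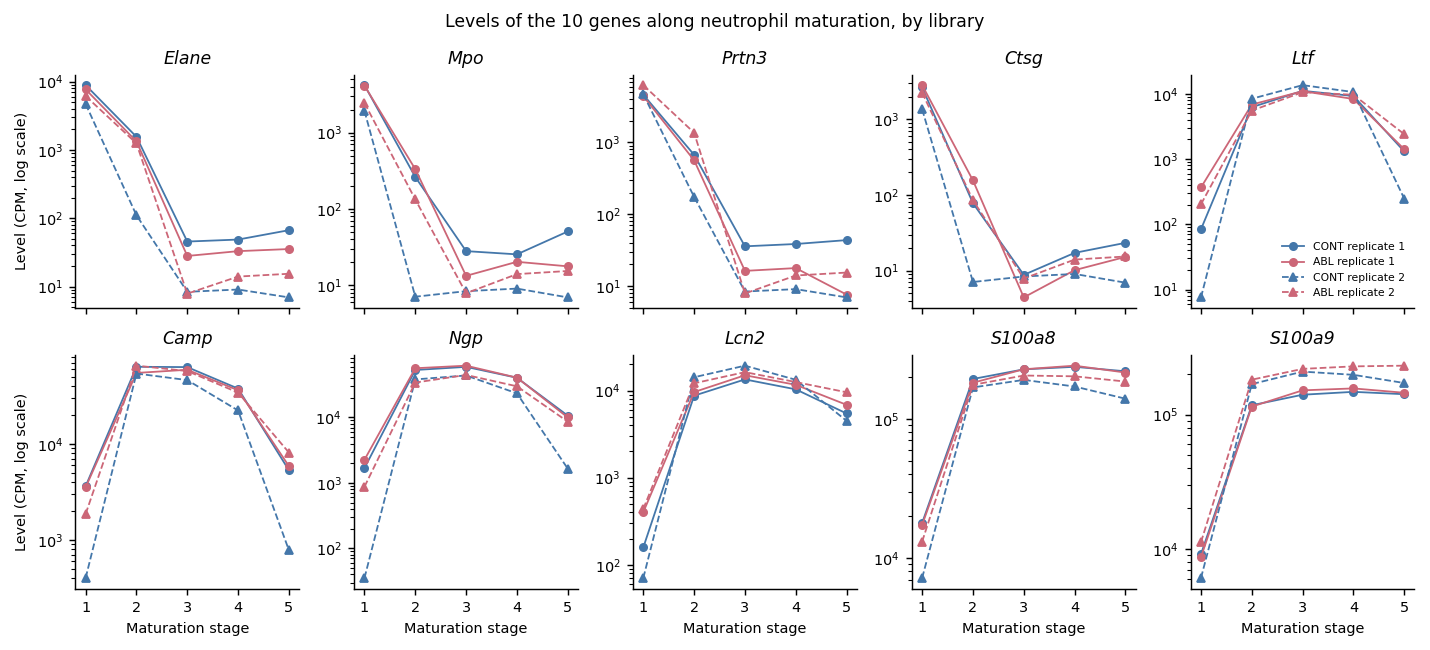
Level of each of the 10 genes (CPM, log scale) in maturation stages 1 to 5, with 1 line per library. Values under 3 counts are drawn at the level of 3 counts. Elane, Mpo, Prtn3 and Ctsg were highest in stage 1, Ltf, Camp, Ngp and Lcn2 in stage 2 or 3, and S100a8 and S100a9 in stages 3 to 5.

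The order was put into 1 number per gene by weighting the maturation score of each stage (from -0.72 to 0.85) with the level of the gene there. This mean lay between -0.72 and -0.65 for the primary granule genes. It was 0.01 to 0.08 for Camp, 0.08 to 0.16 for Ngp, 0.16 to 0.25 for Ltf and 0.18 to 0.26 for Lcn2. For S100a8 it was 0.27 to 0.31 and for S100a9 0.30 to 0.33. Of the 32 pairs of genes from different groups, 32 stood in the order primary, secondary, calprotectin in all 4 libraries, and the sequence Camp, Ngp, Ltf, Lcn2 within the secondary granule genes was also the same in each. With the members kept among the clustering genes, 30 of the 32 pairs stood in order, and in CONT replicate 2 the mean of Mpo (0.17) then lay above those of Camp (0.07) and Ngp (0.13). Stages needed 10 cells, and in that setting CONT replicate 2 lacked the earliest stage, with 4 used against 5 in each other library. Elane, Prtn3 and Ctsg there all had a mean of -0.24. The ranges of Ltf and Lcn2 overlapped between libraries, as did those of S100a8 and S100a9. The mean weighs the whole course and is not an order of onset. In stage 1, S100a8 was 13.2-fold, 13.9-fold, 26.5-fold and 15.6-fold below its peak. Ltf was 132-fold, 29.9-fold, 2696-fold (on 2 UMIs) and 52.2-fold below its peak there. In ABL replicates 1 and 2, 1 cell held 204 of the 243 and 131 of the 132 Ltf UMIs. S100a8 was uneven as well. The median stage 1 cell held 40, 44, 10.5 and 2 UMIs of S100a8, and single cells up to 3003, 3647, 1571 and 2187. These folds of sums therefore do not order the onset of the genes. Cells of 1 library are not replicates, so the order is a description over 4 libraries and was given no test.

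Transcripts of the 10 genes were concentrated in neutrophil-lineage cells but not held there alone. Neutrophil-lineage cells held 61.8%, 56.5%, 80.5% and 79.2% of all member UMIs of a library, while holding 19.95%, 12.1%, 5.50% and 5.28% of the UMIs of all genes. Near-empty droplets held 23.4%, 32.0%, 7.01% and 3.50% of the member UMIs. Barcodes with more than 300 UMIs that were not called as cells held 8.83%, 4.94%, 1.16% and 12.5%, with ABL replicate 2 highest. Mesenchymal cells held 2.34%, 3.92%, 1.20% and 1.11%. Haemoglobin transcripts, another abundant source of free RNA in marrow, were spread differently, with 46.6%, 24.4%, 59.96% and 57.4% of their UMIs in uncalled barcodes above 300 UMIs.

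A hematopoietic cluster that carried mesenchymal as well as granulocyte precursor genes was left unnamed (70, 6, 25 and 18 cells). Elane was at 1420, 39.5, 1598 and 2691 CPM there. In CONT replicate 2, unnamed clusters held 34.9% of all Elane UMIs of the library, against 54.1% in neutrophil-lineage cells, so the levels of the primary granule genes in neutrophil-lineage cells of that library leave out many of their transcripts.

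**Figure D2:**
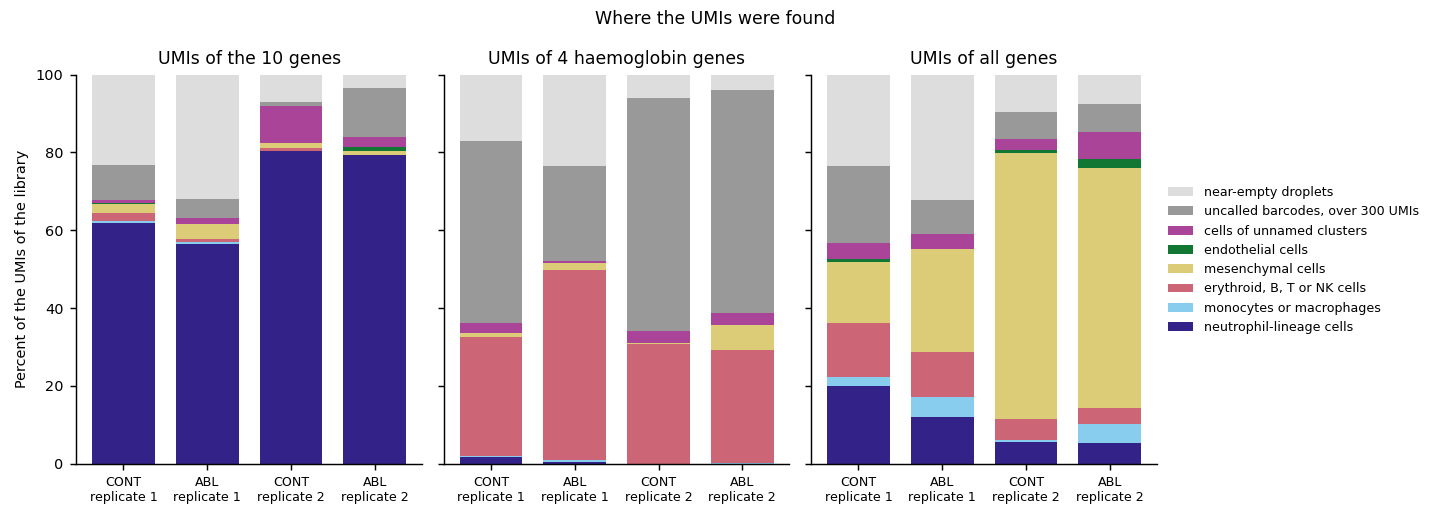
Percent of the UMIs of each library by place, for the 10 genes (left), the 4 haemoglobin genes (middle) and all genes (right). Neutrophil-lineage cells held 56.5% to 80.5% of the UMIs of the 10 genes and 5.28% to 19.95% of those of all genes.

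In mesenchymal cells, S100a8 and S100a9 had a UMI in every cell of replicate 1, and the levels of all 10 members were lower in replicate 2. The other members were found in fewer cells of replicate 1, from 99.3% and 97.5% for Ngp to 10.1% and 9.83% for Ctsg. S100a8 was at 7608, 4955, 146 and 179 CPM in mesenchymal cells, against 47059, 31392, 6528 and 4050 CPM in near-empty droplets of the same libraries. The median mesenchymal cell held 47, 44, 2 and 1 UMIs of the 10 genes together, and 0, 0, 375 and 691 cells held none. Thinned to 1000 UMIs, 96.7%, 89.3%, 4.72% and 3.48% of mesenchymal cells had an S100a8 UMI (100%, 100%, 42.1% and 26.4% before thinning, at median depths of 4626, 7083, 12795 and 12881 UMIs). Among B-lineage cells, which should lack the gene, the share was 97.9%, 89.9%, 9.52% and 0% of 22 cells (exact binomial upper bound 15.4%). Shares near 100% cannot show whether the levels are equal. By summed level, S100a8 and S100a9 were 1.31%, 0.868%, 0.0319% and 0.0386% of the UMIs of mesenchymal cells. In B-lineage cells they were 2.12%, 0.384%, 1.10% and 0.00657%, which in CONT replicate 2 rested on few cells. In CONT replicate 1, 2 of 144 B-lineage cells held 8713 of the 23716 member UMIs of the class. Elane was found in 5.93%, 1.30%, 0.0974% and 0.111% of thinned mesenchymal cells (25.3%, 16.5%, 1.12% and 0.553% before thinning). Other neutrophil genes were present there too: 18, 18, 18 and 16 of the 18 neutrophil markers had a UMI, with a summed level of 1713, 1038, 201 and 98.6 CPM, and Gfi1 and Nkg7 were at 0 in ABL replicate 2. The part of neutrophil RNA in the mesenchymal levels was not tested.

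The level of the 10 genes in mesenchymal cells was 0.153, 0.149, 0.0243 and 0.0386 of their level in near-empty droplets. For the 4 haemoglobin genes this ratio was 0.0914, 0.0993, 0.0093 and 0.202, lower than for the members in 3 libraries and higher in ABL replicate 2. The member UMIs were unevenly spread over cells. The 1% of mesenchymal cells with most member UMIs (14, 7, 21 and 19 cells) held 41.9%, 42.2%, 67.9% and 83.0% of them, and a single cell held 7663 of 12004 in CONT replicate 2. Without these cells the ratio was 0.0910, 0.0877, 0.0079 and 0.0067 for the members and 0.0926, 0.09999, 0.0092 and 0.205 for haemoglobin. The mix of the 10 genes in mesenchymal cells was close to that of near-empty droplets in replicate 1, where 2.51% and 3.57% of member UMIs would have to be assigned to another member to make the mixes equal. In replicate 2 these figures were 6.06% and 11.2%. In stage 1 cells, for comparison, they were 35.7% to 46.2%. In all neutrophil-lineage cells together they were 5.74%, 5.69%, 2.74% and 2.08%, so a close mix was not particular to mesenchymal cells.

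Single cells also carried the members in other classes. In CONT replicate 2, 2 of 63 B-lineage cells held 6507 of 6578 member UMIs of the class. In ABL replicate 2, 2 of 116 endothelial cells held 9425 of 9527, and 1 of 46 T or NK cells 489 of 515. In erythroid cells of CONT replicate 2, 1 of 58 cells held 326 of 455, and 289 of the 455 UMIs were of Mpo. Such cells were not removed as doublets in the main analysis, and the levels of the members in these classes rest on them. In the monocyte or macrophage class, Elane was at 60.1, 35.3, 3.597 and 1.48 CPM and S100a8 at 10905, 3748, 151 and 61.8 CPM, below the near-empty droplets of the same libraries in all 4. Single cells weighed on this class in replicate 1 too. There, 2 of 181 cells of CONT held 7614 of 24971 member UMIs, and 1 of 154 cells of ABL held 3030 of 10423. In endothelial cells of CONT replicate 1, 2 of 88 cells held 3878 of 9664.

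**Figure D3:**
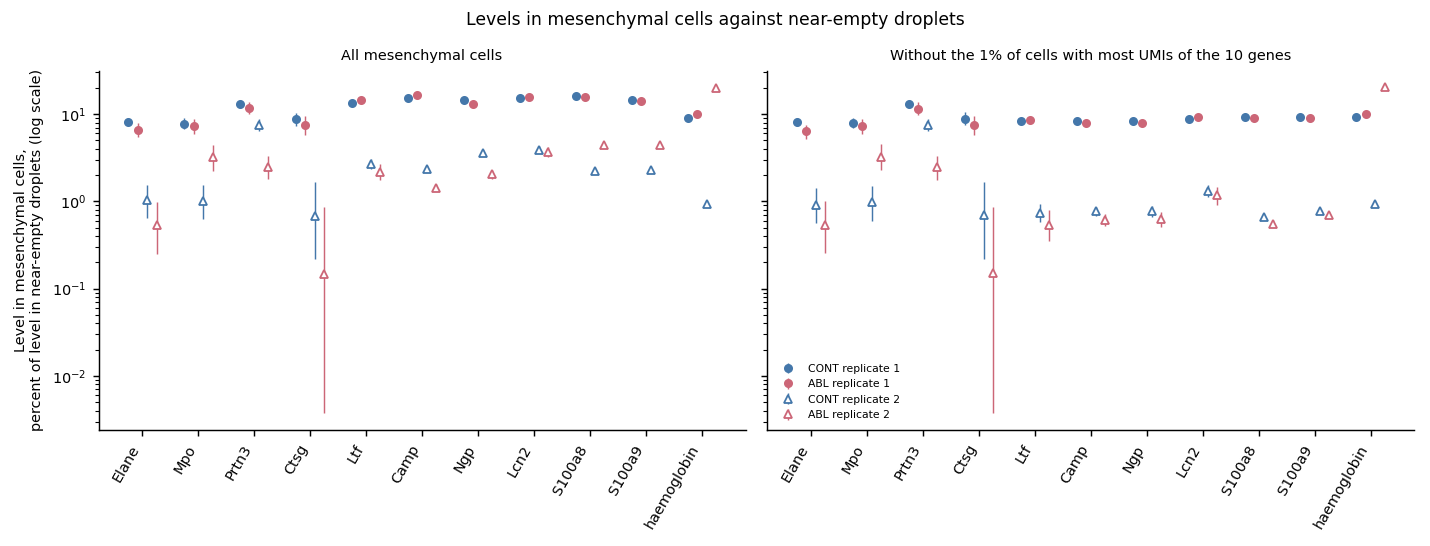
Level in mesenchymal cells as a percent of the level in near-empty droplets (log scale) for each of the 10 genes and for haemoglobin, with 95% counting intervals, for all mesenchymal cells (left) and without the 1% of cells with most UMIs of the 10 genes (right). Replicate 2 lay below replicate 1 for all 10 genes in both panels, and in CONT replicate 2 Prtn3 stood above the other 9.

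Prtn3 was the highest of the 10 members relative to near-empty droplets in mesenchymal cells of CONT replicate 2, but not in the other libraries. Its ratio to near-empty droplets was 0.130, 0.118, 0.0757 and 0.0246, against 0.0823, 0.0660, 0.0103 and 0.0053 for its neighbour Elane. In CONT replicate 2 the 95% counting intervals of the 2 genes were 0.0647 to 0.0884 and 0.0065 to 0.0156 and did not overlap, and the same held in each of the other 3 libraries. Prtn3 gave 373, 160, 251 and 52 UMIs in 305, 140, 224 and 49 mesenchymal cells, while Elane gave 393, 135, 24 and 10 UMIs in 333, 114, 23 and 10 cells. The 251 UMIs of CONT replicate 2 came from 224 cells with at most 5 each, so they did not rest on a few cells. Among mesenchymal kinds, Prtn3 was at 55.7, 31.0, 9.21 and 6.85 CPM in reticular cells, the Cxcl12-high stromal cells of the marrow. In osteoblastic cells it was at 44.1, 19.3, 6.88 and 0.567 CPM. In the other mesenchymal cells, of which CONT replicate 2 had 0, it was at 37.2 and 24.3 CPM in replicate 1 and at 1.04 CPM in ABL replicate 2. The annotated Prtn3 gene shares 159 bases with Plppr3, which lies on the other strand, and Plppr3 was at 44.9, 30.4, 30.4 and 4.37 CPM in mesenchymal cells. The part of Plppr3 reads in the Prtn3 counts was not tested.

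For ABL against CONT, counts were summed per library and class and tested with edgeR's quasi-likelihood test with the replicate as a block and Benjamini-Hochberg adjustment over all genes. With 2 libraries on each side, the smallest two-sided p of an exact permutation test is 0.333, so single values were not tested. In neutrophil-lineage cells, Elane was at 2657, 2167, 873 and 2252 CPM. ABL was below CONT in replicate 1 and above it in replicate 2. The other primary granule genes had the same pattern or, for Ctsg (682, 718, 243 and 696 CPM), a small difference in replicate 1 and a larger one in replicate 2. Stage 1, where the primary granule genes were highest, made up 13.3%, 10.5%, 8.57% and 19.8% of neutrophil-lineage cells. The part of this mix of stages in the summed levels was not tested. S100a8 was at 166857, 166968, 138111 and 136161 CPM, and its CONT and ABL ranges overlapped. None of the 10 genes passed the threshold, against 0.291% of the 8583 genes tested (0.198% higher and 0.0932% lower in ABL). At an unadjusted p under 0.05, 273 genes but 0 members were found, and DESeq2 also called 0 members. The log2 fold changes of ABL over CONT were 0.56 ± 0.44 (SE) for Elane, 0.57 ± 0.44 for Mpo, 0.64 ± 0.44 for Prtn3 and 0.82 ± 0.45 for Ctsg, with an adjusted p of 0.998 for each in edgeR. Those of the secondary granule and calprotectin genes lay between -0.15 and 0.14, and the median of the 10 members was 0.10 against 0.00293 for all genes tested.

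Mesenchymal cells likewise gave 0 calls among the 10 members, against 2.48% of 13732 genes (1.81% higher and 0.663% lower). All 10 log2 fold changes were negative, from -1.62 to -0.05, with a median of -0.92 against -0.06 for all genes. Prtn3 was nearest to a call, at 53.7, 26.4, 9.10 and 2.03 CPM, lower in ABL than in CONT of the same replicate in both, although ABL replicate 1 was above CONT replicate 2. Its log2 fold change was -1.62 ± 0.44 (edgeR adjusted p = 0.071), and it passed under some other settings. The mesenchymal class held different cells in the 2 conditions of replicate 2, with 1979 reticular, 74 osteoblastic and 0 other cells in CONT and 488, 82 and 1239 in ABL. Within reticular cells, Prtn3 was at 9.21 and 6.85 CPM in CONT and ABL of replicate 2, with overlapping 95% counting intervals (8.08 to 10.4 and 4.65 to 9.72). In reticular cells of replicate 1 it was at 55.7 and 31.0 CPM, with intervals that did not overlap (49.9 to 62.1 and 25.1 to 37.9). Elane, at 56.6, 22.3, 0.870 and 0.390 CPM, had -1.31 ± 0.45 (edgeR adjusted p = 0.147). At an unadjusted p under 0.05, 2127 genes were found, Prtn3 and Elane among them, and DESeq2 called 0 members.

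In near-empty droplets, 0 of 10 members passed, against 2.64% of 12636 genes (2.14% higher and 0.499% lower), and the log2 fold changes lay between -0.80 and -0.36. S100a8 was at 47059 and 6528 CPM in CONT and at 31392 and 4050 CPM in ABL near-empty droplets, lower in ABL within each replicate. In whole libraries, which do not depend on calling or naming cells, 0 of 10 passed, against 1.38% of 15359 genes (1.31% higher and 0.0716% lower), and the log2 fold changes lay between -0.74 and 0.15. Unadjusted, 1474 and 1579 genes had p under 0.05 in these 2 comparisons, with 0 members in either, and DESeq2 called 0 members in both. In sums over droplets or whole libraries, fewer neutrophils and less RNA per neutrophil cannot be told apart.

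**Figure D4:**
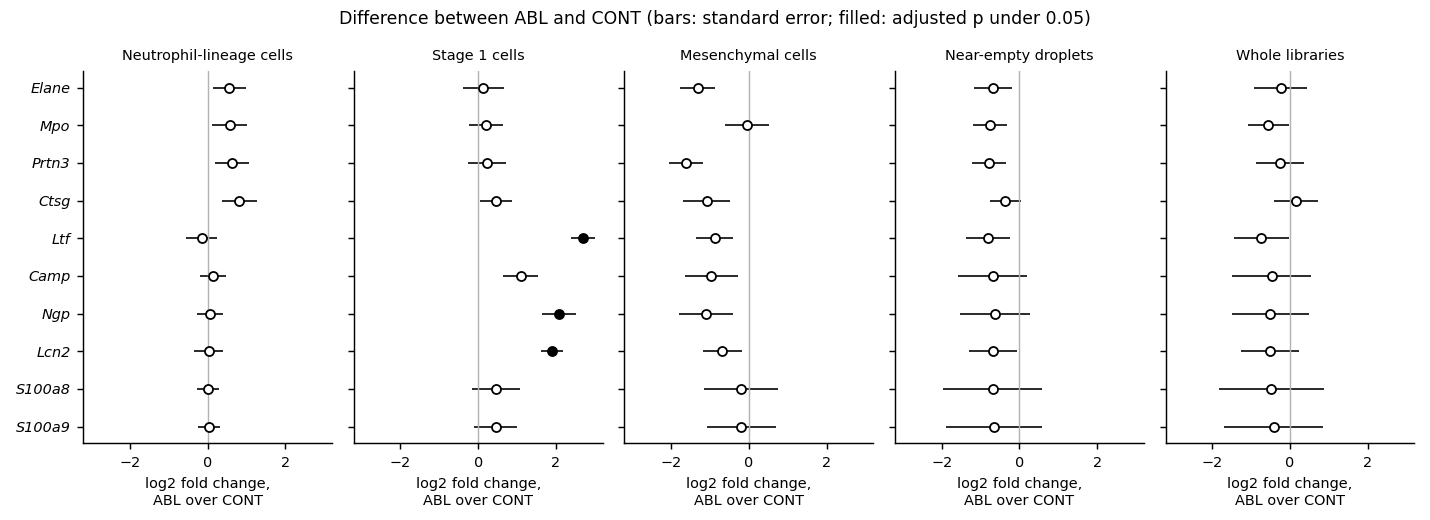
The log2 fold change of ABL over CONT for each of the 10 genes in neutrophil-lineage cells, stage 1 cells, mesenchymal cells, near-empty droplets and whole libraries, with standard errors as bars. Filled points mark an adjusted p under 0.05 in edgeR, which only Ltf, Ngp and Lcn2 reached, in stage 1 cells.

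Within single stages, 3 members were called, all in stage 1 and all higher in ABL, against 0.206% of 6299 genes called higher there (0.222% lower and 0.429% in either direction). Ltf had 186, 243, 2 and 132 UMIs in stage 1, or 84.0, 367, 5.05 and 203 CPM, and both ABL values were above both CONT values. Its log2 fold change was 2.70 ± 0.30 (edgeR adjusted p = 1.43e-15). Lcn2 had 351, 266, 28 and 285 UMIs, or 159, 402, 70.6 and 439 CPM, again without overlap, with a log2 fold change of 1.90 ± 0.29 (edgeR adjusted p = 1.06e-07). Ngp had 3736, 1494, 14 and 568 UMIs, or 1687, 2259, 35.3 and 874 CPM, where CONT replicate 1 was above ABL replicate 2, with a log2 fold change of 2.08 ± 0.44 (edgeR adjusted p = 0.00103).

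These calls rested on 1 cell in each ABL library. A single stage 1 cell held 204 of the 243 Ltf UMIs of ABL replicate 1 and another 131 of the 132 of ABL replicate 2, while no CONT cell held more than 9. The same 2 cells held 159 of 266 and 247 of 285 Lcn2 UMIs, and 914 of 1494 and 536 of 568 Ngp UMIs. The 2 cells had 2 and 5 Elane UMIs. When the 1 cell with most secondary granule UMIs was left out of each library, Ltf was at 84.0, 61.9, 5.49 and 1.60 CPM and 0 of the 10 members were called. With these cells left out, the log2 fold changes were -0.59 for Ltf, 0.02 for Ngp and 0.13 for Lcn2 (edgeR adjusted p = 0.9997 for each). With all cells kept but without the replicate block, 0 members were called as well.

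**Figure D5:**
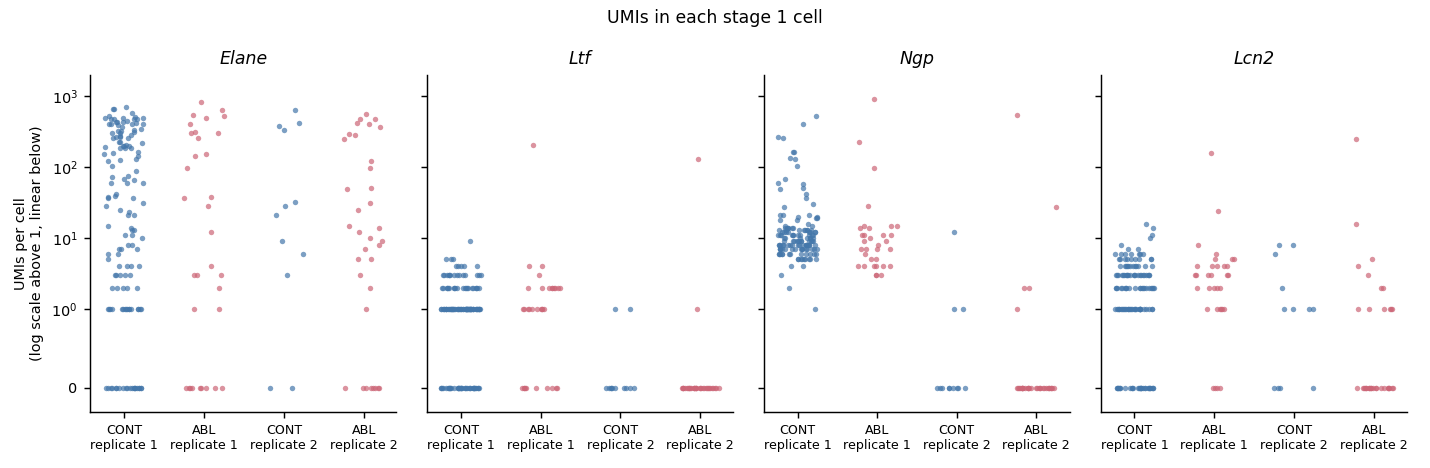
UMIs of Elane, Ltf, Ngp and Lcn2 in each stage 1 cell (1 point per cell, log scale above 1), by library. For Ltf, 1 cell of each ABL library (204 and 131 UMIs) lies far above all other cells, of which none of CONT exceeds 9.

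In stages 2 to 5, 0 members were called, against 0.164%, 0.234%, 0.592% and 0.0336% of the genes tested. Of all genes, 0.143%, 0.117%, 0.333% and 0.0336% were called higher in these stages and 0.0205%, 0.117%, 0.259% and 0% lower, and 174, 102, 113 and 73 had an unadjusted p under 0.05. In stage 2 the 4 primary granule genes had log2 fold changes of 1.33 to 1.69 with an unadjusted p under 0.05, and Ctsg (77.8, 155, 7.07 and 85.2 CPM) was nearest to a call (1.69 ± 0.40, edgeR adjusted p = 0.094). CONT replicate 2, with 20 cells, was the lowest of the 4 libraries for each of these genes. In replicate 1, Elane (1558 CPM in CONT and 1333 in ABL) and Prtn3 (671 and 563 CPM) were lower in ABL. Mpo (262 and 332 CPM) and Ctsg were higher in ABL there. Single stage 2 cells weighed on these levels. The highest cell held 22 of 191, 52 of 98, 3 of 5 and 20 of 64 Ctsg UMIs. For Elane it held 373 of 3824, 382 of 840, 40 of 78 and 385 of 937 UMIs. The stage 2 fit was not repeated without these cells. Mpo, Prtn3 and Ctsg were below the filter on low counts in stages 3 to 5, where 7 members were tested. In stage 5, Ltf, Camp and Ngp had log2 fold changes of 1.78, 1.87 and 1.27, all with an edgeR adjusted p of 0.999, and CONT replicate 2 was again the lowest library. DESeq2 called 1 member over all stages, Lcn2 in stage 1.

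Related genes of the same cells were counted by list. Of 20 other granule and secreted neutrophil genes, such as Ms4a3, Mmp8, Chil3 and Pglyrp1, 0 passed in neutrophil-lineage cells (median log2 fold change -0.05), and 0 passed in mesenchymal cells (median -0.27), near-empty droplets or whole libraries. Of these 20, 10 are also among the neutrophil marker genes that named the stages. Of 10 granulocyte transcription factors, Cebpd was not found by symbol and 9 were tested in neutrophil-lineage cells, with 0 calls and a median of -0.004. Of 6 relatives (the lipocalin 2 receptors Slc22a17 and Lrp2 and S100a4, S100a6, S100a10 and S100a11), 4 were tested in the same cells and 0 passed, with a median of 0.30. Haemoglobin genes, which neutrophils do not make, fell in the same sums: 3 of 4 passed, Hba-a2 with -2.08 ± 0.50, Hbb-bs with -1.90 ± 0.43 and Hba-a1 with -1.81 ± 0.46 (edgeR adjusted p = 0.0167, 0.00598 and 0.0248). Hbb-bs was at 8478, 2558, 98.8 and 22.3 CPM there, lower in ABL within each replicate and lower in replicate 2. By stage, Hba-a2 and Hbb-bt fell in stage 1 and all 4 genes in stages 3 and 4. In mesenchymal cells 0 of the 4 haemoglobin genes passed, with a median of 0.97, and no gene of the transcription factor or relative lists passed in mesenchymal cells, near-empty droplets, whole libraries or single stages.

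The genes closest to 3 members in level across 34 sums of cell class and library were taken from 2572 genes with at least 50 CPM on average. For Elane these were Ms4a3 (Pearson r = 0.98 of log2 CPM), Ap3s1 (0.87) and Fcnb (0.86). For Ltf they were Wfdc21 (0.92), AA467197 (0.92) and Ly6g (0.90), and for S100a8 Wfdc21 (0.98), Pglyrp1 (0.95) and G0s2 (0.92). Among members, Elane and Prtn3 had r = 0.98 and Elane and Ltf r = 0.36. The sums share libraries, depths and free RNA, so these values are descriptions.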

How the data were processed

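Deposited values were raw UMI counts per feature and barcode, which the authors made with Cell Ranger on mm10 with reporter sequences added, and analysed with Seurat (versions not given in the sources used here). Barcodes were called as cells at 500 genes and 20% mitochondrial UMIs (v2) or 1000 genes and 15% (v3), as in the study, with a UMI floor set per library at 0.1 times the UMI count of percentile 99 in its 3000 largest barcodes. Doublets were called by Scrublet (scanpy 1.11.5) and removed only as an alternative. Libraries were clustered in Seurat 5.3.0 without the members (2000 variable genes, 30 components, resolution 0.8), and clusters were named from 86 marker genes. A cluster needed 3 detected markers and a score of 0.25, or of 0.5 in hematopoietic cells, which was set after the data were seen. Hematopoietic cells of the 4 libraries were clustered together. CPM have exact Poisson intervals and shares exact binomial ones (Clopper-Pearson), at 95%, for counting error only.

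Sums of counts were tested with edgeR 4.0.16 (glmQLFTest, TMM, filterByExpr) with a replicate block, Benjamini-Hochberg adjustment over all genes and a threshold of 0.05, with 1 residual degree of freedom. SEs are the log2 fold change over the square root of F. Nothing in the labels says that the 2 replicates are separate litters or days. The p-values set a difference against a spread between these libraries that, with 1 residual degree of freedom, is largely pooled over genes. A small p, as for Ltf in stage 1, therefore need not mean a small spread of that gene. The block follows the study's contralateral design. Xist goes against pairing by mouse in replicate 2, where the shared number then stands for the chemistry. Deviations of CONT and ABL within replicates correlated across genes (0.71 in neutrophil-lineage, 0.44 in mesenchymal cells), chemistry included. In simulated data, 200 genes were given a log2 change of 2 up or down, and 174 were recovered in neutrophil-lineage cells (8334 genes) and 63 in mesenchymal cells (13411 genes). Stages were tested after the data were seen. Alternatives were no block, DESeq2 1.42.0, no TMM, no filter, other cell filters and resolutions, members kept in clustering, each library left out and cells left out.

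All 10 members are named. The members and lists were chosen with earlier results of these data known. Of each other list, genes past the threshold were to be named, at most 5, and likeness was taken on log2(CPM + 10).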

Additional observations from a re-analysis of the deposited data

Results flagged for a closer look

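Barcodes with more than 300 UMIs that were not called as cells entered no comparison between groups, and 3 of the 10 genes were more than 5 times as high there in ABL replicate 2 as in CONT replicate 2. S100a9 was at 22554 CPM against 1989 CPM, a ratio of 11.3. S100a8 was at 18158 CPM against 1706 CPM, a ratio of 10.6. Lcn2 was at 463 CPM against 65.2 CPM, a ratio of 7.10. In replicate 1 the values of ABL and CONT were 15942 and 18035 CPM for S100a9, 21419 and 24914 CPM for S100a8 and 665 and 897 CPM for Lcn2, without such a difference. Under a looser filter (300 genes and 20% mitochondrial UMIs), part of these barcodes were called, and mature neutrophils numbered 472, 140, 72 and 147 in the 4 libraries, against 255, 96, 62 and 34 under the main filter. The difference was not tested, since it rests on 1 library per condition. The share of all genes that differed as much in these barcodes was not counted, so 3 of 10 cannot be set against it.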

How the results depend on the processing

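Of the alternatives that kept all 4 libraries, 366 values kept their direction and side of the threshold, 6 became stronger, 8 weaker and 17 turned. Fits that left out 1 library were run without the replicate block, with the lone library assumed to vary like the others, and 125 of their values kept their side, 2 became stronger, 7 weaker and 66 turned. The cause was not tested for any of these. Each fit without 1 library set a lone library of 1 chemistry against libraries of both chemistries. Condition and chemistry were then unbalanced, so a turn in such a fit cannot be told apart from the difference between replicates. In neutrophil-lineage cells, near-empty droplets and whole libraries, 0 members were called under every alternative run. In mesenchymal cells the count was 1 without TMM scaling, under the study filter alone and in cells with a tdTomato UMI, 2 under the looser filter, and 0 to 1 when 1 library was left out, with the 1 call coming without ABL replicate 1. Over the single stages, where the main count was 3, there were 11 calls without TMM scaling, 1 with DESeq2, 0 without the 1 cell of each library with most secondary granule UMIs, and 0 to 7 when 1 library was left out, with 7 without CONT replicate 1 and 0 without any other. Without the replicate block, 0 were called over the stages, and pairing changed no other count of called members. The stage alternatives and the removal of single cells were chosen after seeing the data. Counts of called members under the alternatives are given without the share of all genes called under the same setting. They are therefore not results about the members. The level of the members in mesenchymal cells as a percent of near-empty droplets (15.3, 14.9, 2.43 and 3.86% in the 4 libraries) was 15.5, 14.7, 2.37 and 3.76% against droplets of at most 100 UMIs, 9.10, 8.77, 0.794 and 0.666% without the top 1% of cells, 8.78, 10.98 and 3.24% in CONT replicate 1, ABL replicate 1 and ABL replicate 2 without Scrublet doublets, and 14.98, 15.05 and 3.27% in these 3 libraries in cells with a tdTomato UMI. The 17 values that turned with all 4 libraries kept are given next, as log2 fold changes of ABL over CONT. For neutrophil-lineage cells, Ltf was at 0.0208 (resolution 1.5) and 0.0116 (members kept in clustering). In the same cells, Ngp was at -0.0210 (looser filter), Lcn2 was at -0.0208 (looser filter), S100a8 was at -0.0148 (DESeq2) and -0.0094 (no TMM). For mesenchymal cells, Mpo was at 0.0086 (DESeq2), Camp was at 0.0324 (looser filter), S100a8 was at 0.13 (stricter filter) and 0.16 (looser filter) and 0.21 (members kept in clustering), S100a9 was at 0.0853 (stricter filter) and 0.0888 (looser filter) and 0.15 (members kept in clustering). For near-empty droplets, Ctsg was at 0.0340 (at most 100 UMIs). For whole libraries, Ctsg was at -0.52 (no replicate block). For stage 1 cells, Ltf was at -0.59 (without the 1 cell of each library with most secondary granule UMIs). For genes with at least 1 value that turned on leaving out 1 library, the ranges of log2 fold changes over these fits follow. They include values that did not turn. The range in neutrophil-lineage cells was Elane -0.38 to 1.53, Mpo -0.40 to 1.62, Ctsg -0.0617 to 1.73, Camp -0.22 to 0.53, Ngp -0.38 to 0.58, Lcn2 -0.0434 to 0.14, S100a8 -0.25 to 0.34, S100a9 -0.15 to 0.20. The range in mesenchymal cells was Elane -6.06 to 3.49, Mpo -3.13 to 3.32, Prtn3 -3.85 to 0.45, Ctsg -7.71 to 4.80, Ltf -4.86 to 3.06, Camp -5.70 to 3.76, Ngp -6.03 to 3.82, Lcn2 -4.19 to 2.80, S100a8 -4.34 to 3.96, S100a9 -3.68 to 3.34. The range in near-empty droplets was Elane -2.37 to 1.26, Mpo -2.15 to 0.81, Prtn3 -1.65 to 0.36, Ctsg -2.29 to 1.80, Ltf -2.49 to 0.95, Camp -2.52 to 1.29, Ngp -3.36 to 2.17, Lcn2 -2.41 to 1.08, S100a8 -2.70 to 1.40, S100a9 -2.23 to 1.01. The range in whole libraries was Elane -1.83 to 1.73, Mpo -2.24 to 1.34, Prtn3 -1.37 to 1.03, Ctsg -1.70 to 2.33, Ltf -2.19 to 0.84, Camp -1.95 to 1.28, Ngp -2.54 to 1.67, Lcn2 -1.73 to 0.85, S100a8 -2.04 to 1.30, S100a9 -1.42 to 0.84. The range in stage 1 cells was Elane -0.46 to 0.80, Mpo -0.45 to 1.02, Ctsg -0.15 to 1.15, Camp -0.52 to 2.99, Ngp -0.19 to 5.71, S100a8 -0.33 to 1.32. Stage 1 had 12 to 141 cells per library. In mesenchymal cells of replicate 2 the members rest largely on few cells. The median cell held 2 and 1 UMIs of the 10 genes, and the top 1% of cells held 67.9% and 83.0% of the member UMIs. The median depth of all mesenchymal cells of replicate 2 was 12795 and 12881 UMIs, above that of replicate 1.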
